A study of Mus musculus with 24 samples.

Results

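Branched-chain amino acid breakdown was followed through 10 genes in adipose tissue of mice on different dietary fats: Bcat2, Bckdha, Bckdhb, Dbt, Bckdk, Ivd, Mccc1, Mccc2, Pcca and Pccb. They were taken by gene symbol, as every probe of the deposited table that carries one of these symbols. That gave 18 of 45281 probes, and 10 of 19053 named genes. Each gene was read at its brightest probe, the one with the highest mean over all 24 arrays.

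The arrays, Illumina's mouse expression design, carried RNA of white adipose tissue (WAT) or brown adipose tissue (BAT). All mice were male C57Bl/6J. They had eaten 1 of 3 diets, and every tissue and diet has 4 arrays. One diet was low in fat, and the others were high-fat diets (HFD) whose fat was either corn oil or contained eicosapentaenoic and docosahexaenoic acid (EPA/DHA), long-chain fatty acids of fish oil. Per the labels, the mice on each diet were picked to stand for their group in body weight, plasma triglyceride and plasma cholesterol. No genetic change is named, and the age of the mice, the length of feeding and the WAT depot are not stated. Nor is it stated whether each array is a separate mouse or whether a WAT and a BAT array came from 1 mouse, and the p-values measure only the spread between these arrays.

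The extraction text names skeletal muscle, while the tissue labels name adipose tissue. Adipoq, the adipocyte hormone adiponectin, was bright on every array, at a log2 level of 13.25 to 14.42. Ucp1, the defining gene of brown adipocytes, lay between 13.55 and 14.41 on the BAT arrays. On 10 of the 12 WAT arrays Ucp1 lay between 7.08 and 8.02, near the floor of the scale at about 7, but it reached 9.38 on corn-oil HFD replicate 4 and 10.63 on EPA/DHA HFD replicate 2. The members' calls in the 2 WAT comparisons with corn oil are therefore also given without those 2 arrays. Their EPA/DHA against low-fat differences and the differences of other genes in WAT are not given without them both. The mean of 11 liver genes with a probe ranged from 9.01 to 11.16 over the WAT arrays, although Alb was near the floor, and the mean of 11 skeletal muscle genes ranged from 7.78 to 12.34 over the BAT arrays. BAT low-fat replicate 2 had the lowest mean correlation with the other arrays of its tissue, 0.969, against 0.983 to 0.992 elsewhere.

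Leucine, isoleucine and valine are broken down in mitochondria. An aminotransferase first turns them into keto acids, and the branched-chain keto acid dehydrogenase complex then removes a carbon dioxide in the step that commits them to breakdown. Leucine goes on through isovaleryl-CoA and methylcrotonyl-CoA towards acetyl-CoA, while isoleucine and valine yield propionyl-CoA, which is carboxylated and enters the citric acid cycle. In adipocytes the pathway is known as a source of carbon for fatty acid synthesis, and in brown fat as a fuel in the cold.

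Promoter sequences are shown for Ivd and Bckdha, the genes called lower in WAT on corn oil than on low fat whichever single array was left out. Each window holds the 250 bases before and the 50 bases after the annotated start, from RefSeq on GRCm38.p6, written 5′ to 3′ on the gene's strand. Ivd lies on the plus strand in chr2:118861744-118862043 and Bckdha on the minus strand in chr7:25658712-25659011. Capitals mark the CCAAT box, searched on both strands as CCAAT or ATTGG.
Ivd: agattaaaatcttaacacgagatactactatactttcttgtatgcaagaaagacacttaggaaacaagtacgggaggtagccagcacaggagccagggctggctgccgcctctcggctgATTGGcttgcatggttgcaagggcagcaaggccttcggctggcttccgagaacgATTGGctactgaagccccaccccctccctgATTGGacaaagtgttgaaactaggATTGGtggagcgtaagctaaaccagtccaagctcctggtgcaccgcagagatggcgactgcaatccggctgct
Bckdha: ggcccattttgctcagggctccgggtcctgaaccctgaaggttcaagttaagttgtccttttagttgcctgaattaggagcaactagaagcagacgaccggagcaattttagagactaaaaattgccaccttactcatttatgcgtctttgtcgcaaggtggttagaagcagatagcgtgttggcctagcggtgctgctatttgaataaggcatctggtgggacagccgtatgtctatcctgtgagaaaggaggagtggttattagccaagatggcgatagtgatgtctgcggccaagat
The Ivd window held 4 such boxes, all as ATTGG, with first bases 131, 77, 47 and 23 bases before the start. The Bckdha window held none. Of the 10 genes, 9 had 12 windows between them, Dbt having none in the table used, and 8 of the 12 windows, from Bckdhb, Bckdk, Ivd, Mccc1, Mccc2 and Pcca, held a CCAAT box. Over all 32851 windows of that length the share was 37.4%. The SP/KLF box GGGCGGG was in 3 of the 12 windows and in 25.6% of all windows, and the nuclear receptor hexamer AGGTCA in 3 and in 16.3%. The E-box CACGTG was in 1 window, that of Mccc2, and in 7.15% of all. The longer ERR element TCAAGGTCA, the NRF1 site, the ETS site CCGGAAG and the CRE TGACGTCA were in none of the 12. A match here says only that the letters are in the window.

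In WAT, Ivd, Bcat2, Bckdha and Pccb fell on corn oil against the low-fat diet, by 1.32-fold to 1.67-fold, and Bckdha, Ivd, Pccb and Pcca rose on EPA/DHA against corn oil, by 1.32-fold to 1.46-fold. No member passed the test between EPA/DHA and the low-fat diet. In BAT no member passed the test in any diet comparison. Between tissues, the decarboxylase subunits, the kinase, Mccc2 and both propionyl-CoA carboxylase genes were lower in WAT than in BAT on each diet, while Bcat2 was higher in WAT on 2 of the 3. A gene is called here when its adjusted p in limma was under 0.05, with Benjamini-Hochberg adjustment over all probes kept.

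**Figure D1:**
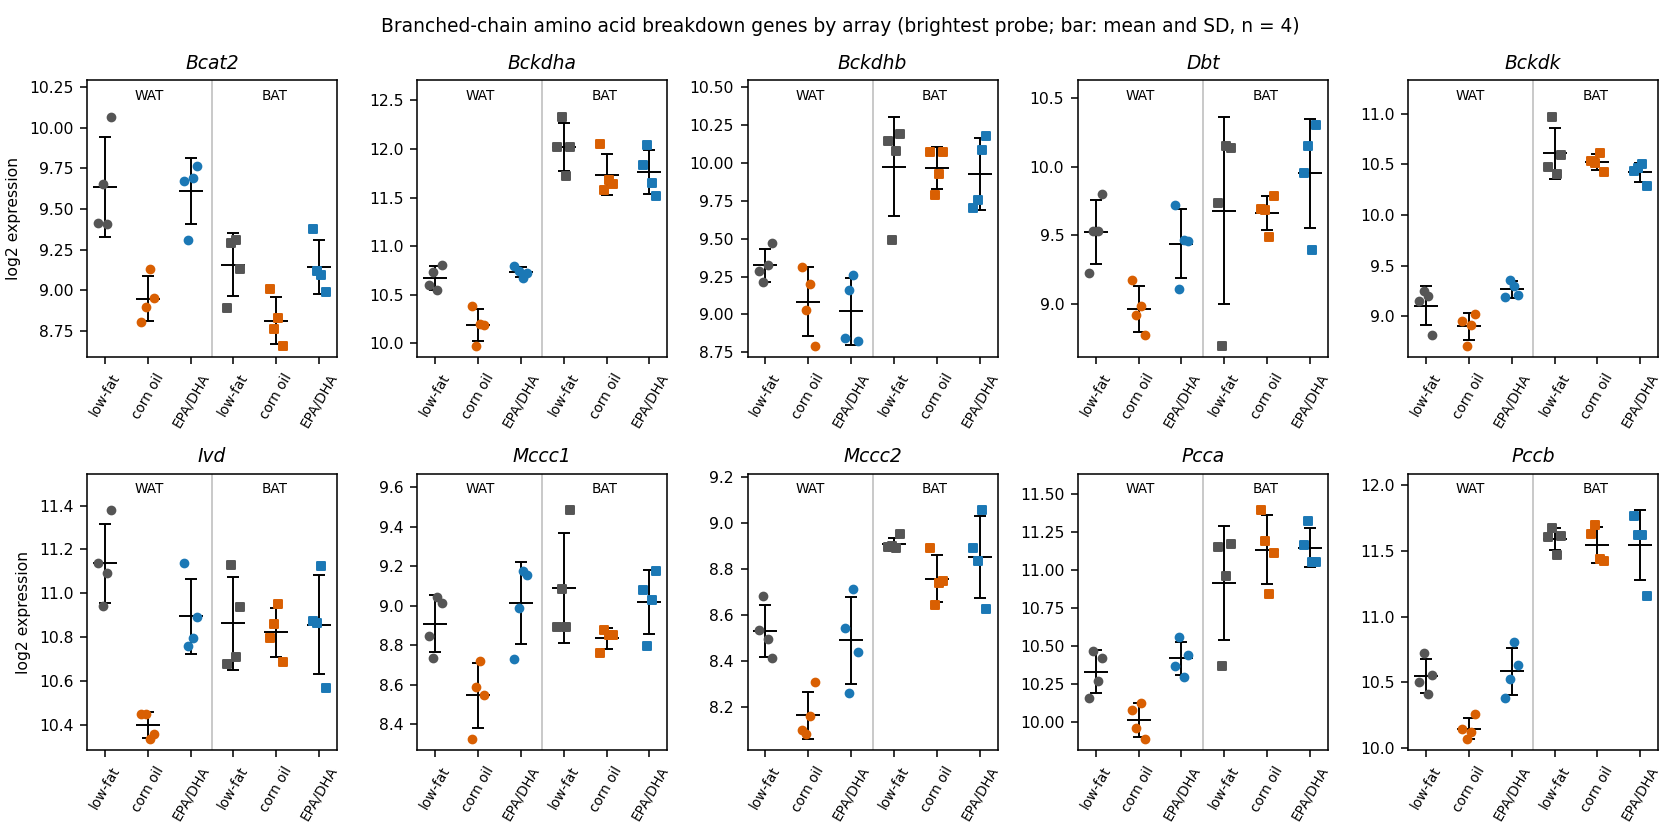
Log2 expression of the 10 genes at their brightest probe (y axis, own scale for each gene) on each array, by tissue and diet (x axis). Points are arrays, and the long bar and error bars are the mean and SD of 4 arrays. In WAT the 4 corn-oil arrays of Ivd, at 10.34 to 10.45, lie below all arrays of the other diets.

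The first question was how WAT on the corn-oil HFD differed from WAT on the low-fat diet. Ivd, isovaleryl-CoA dehydrogenase of the leucine branch, fell most of the 10. Its log2 levels were 11.14, 10.94, 11.09 and 11.38 on the low-fat arrays and 10.45, 10.45, 10.34 and 10.36 on the corn-oil arrays. The groups did not overlap, and the 4 corn-oil arrays were close together. Ivd fell by 0.74 ± 0.10 (SE; 95% interval -0.95 to -0.53; adjusted p = 0.00579), which is 1.67-fold.

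Bcat2, the mitochondrial aminotransferase that opens the pathway, read 9.41, 9.66, 9.41 and 10.07 on low fat and 8.81, 8.90, 9.13 and 8.95 on corn oil. It fell by 0.69 ± 0.15 (adjusted p = 0.0357), or 1.61-fold, with low-fat replicate 4 well above the other low-fat arrays. Bckdha, the alpha subunit of the decarboxylase, read 10.60, 10.73, 10.55 and 10.81 on low fat and 10.38, 9.98, 10.21 and 10.19 on corn oil. Its fall of 0.49 ± 0.08 (adjusted p = 0.0143) was smaller than that of Bcat2, with a smaller SE. Neither gene's groups overlapped.

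Pccb, the beta subunit of propionyl-CoA carboxylase, read 10.51, 10.73, 10.41 and 10.56 on low fat and 10.15, 10.07, 10.12 and 10.26 on corn oil, and fell by 0.40 ± 0.09 (adjusted p = 0.0389). Pcca, its biotin-bearing alpha subunit, read 10.16, 10.47, 10.27 and 10.42 against 10.08, 9.96, 10.13 and 9.89, a difference of -0.32 ± 0.08 (adjusted p = 0.0624). These groups did not overlap either, though Pcca did not pass.

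Dbt encodes the transacylase core of the dehydrogenase complex. It read 9.23, 9.53, 9.53 and 9.80 on low fat and 9.17, 8.92, 8.99 and 8.77 on corn oil, a difference of -0.56 ± 0.14 (adjusted p = 0.0661). Mccc1 and Mccc2 encode the subunits of methylcrotonyl-CoA carboxylase, the leucine step after Ivd. Mccc1 read 8.85, 8.74, 9.04 and 9.01 against 8.32, 8.59, 8.72 and 8.55 (difference -0.36 ± 0.11, adjusted p = 0.124). Mccc2 read 8.54, 8.68, 8.50 and 8.41 against 8.10, 8.08, 8.16 and 8.31 (difference -0.37 ± 0.09, adjusted p = 0.0604). None of these 3 genes passed, although the corn-oil arrays lay below all low-fat arrays in each.

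The groups overlapped for only 2 genes. Bckdhb, the beta subunit of the decarboxylase, had a difference of -0.24 ± 0.13 (adjusted p = 0.403), with arrays from 9.22 to 9.47 on low fat and from 8.79 to 9.32 on corn oil. Bckdk, the kinase that switches the complex off by phosphorylating Bckdha, had -0.21 ± 0.09 (adjusted p = 0.318), with arrays from 8.82 to 9.25 and from 8.71 to 9.02.

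By count, 4 of the 10 genes fell, none rose and 6 did not pass, where 1.82% of all 13349 genes tested fell. In 8 of the 10 the corn-oil arrays lay below every low-fat array, against 5.86% of all genes. The median difference of the 10 was -0.38, against -0.0021 over all genes. Ivd and Bckdha were called whichever 1 of the 8 arrays was left out, but Bcat2 and Pccb only without low-fat replicate 3, with adjusted p-values up to 0.0916 and 0.101 without one of the others. Without the 2 WAT arrays with raised Ucp1 the calls were Ivd (-0.72, adjusted p = 0.0223) and Mccc2 (-0.42, adjusted p = 0.0375), with Bckdha at -0.49 (adjusted p = 0.0501), Bcat2 at -0.69 (adjusted p = 0.0701) and Pccb at adjusted p = 0.0771.

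**Figure D2:**
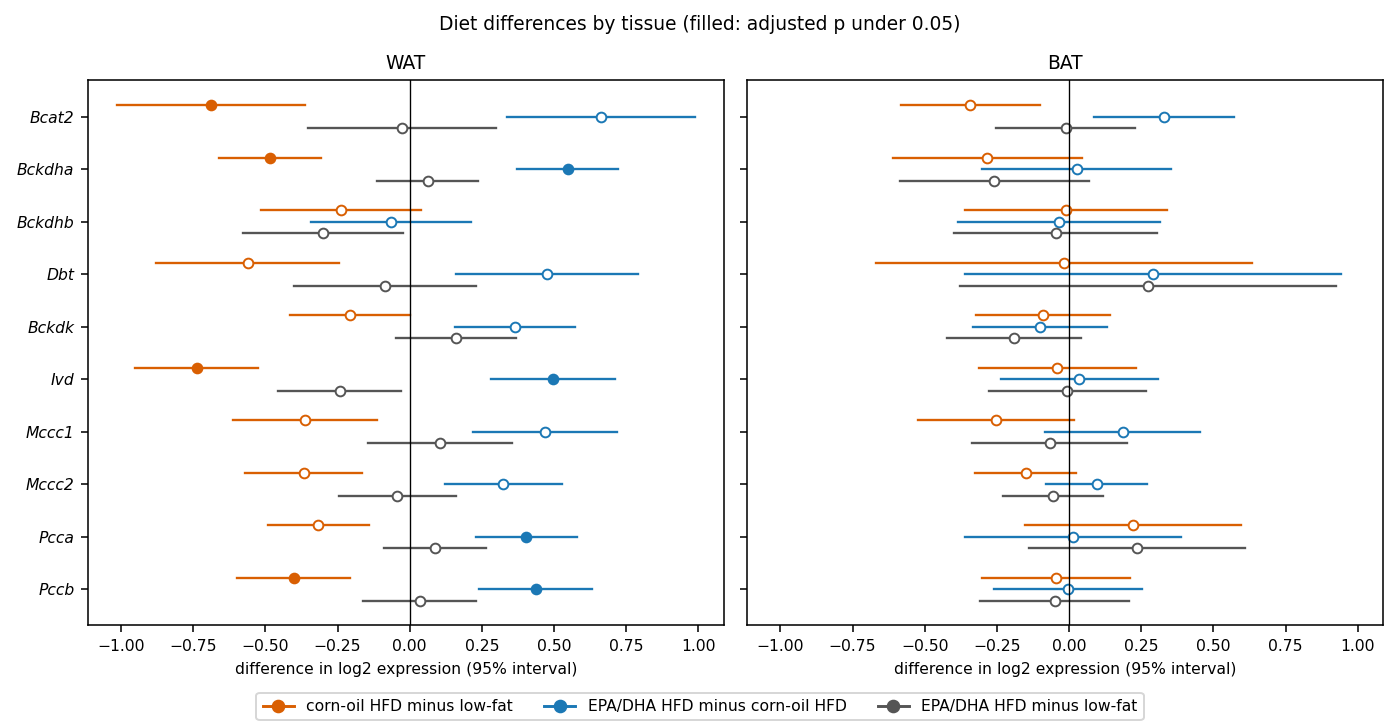
Differences in log2 expression between diets (x axis, with 95% intervals) for each gene (y axis) in WAT and BAT, with filled points for an adjusted p under 0.05. In WAT all 10 corn-oil minus low-fat points lie left of 0 and 9 of 10 EPA/DHA minus corn-oil points lie right of it, while no point is filled in BAT.

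The second comparison asked whether replacing corn oil by EPA/DHA in the high-fat diet changed these genes in WAT. It uses the same 4 corn-oil arrays as the first, so the 2 sets of differences are not independent. Bckdha rose most clearly, with EPA/DHA arrays at 10.80, 10.75, 10.68 and 10.72, close together and above every corn-oil array. The rise was 0.55 ± 0.08 (95% interval 0.37 to 0.72; adjusted p = 0.00991), or 1.46-fold.

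Ivd was at 11.14, 10.76, 10.79 and 10.89 on EPA/DHA and rose by 0.50 ± 0.10 (adjusted p = 0.0317). Pccb was at 10.38, 10.53, 10.80 and 10.63 and rose by 0.44 ± 0.09 (adjusted p = 0.0368). Pcca was at 10.37, 10.56, 10.30 and 10.44 and rose by 0.40 ± 0.08 (adjusted p = 0.0327). All 3 groups lay wholly above the corn-oil arrays, at 1.41-fold, 1.35-fold and 1.32-fold.

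Of the genes that did not pass, Bcat2 had the largest difference, 0.66 ± 0.15 (adjusted p = 0.0521), with EPA/DHA arrays at 9.67, 9.31, 9.69 and 9.77, all above the corn-oil arrays. Dbt was at 9.72, 9.11, 9.46 and 9.46, a difference of 0.48 ± 0.14 (adjusted p = 0.133), and replicate 2 overlapped the corn-oil arrays. Mccc1 was at 8.73, 8.99, 9.18 and 9.15 (difference 0.47 ± 0.11, adjusted p = 0.0656). Its carboxylase partner Mccc2 was at 8.54, 8.26, 8.71 and 8.44 (difference 0.32 ± 0.09, adjusted p = 0.108), with replicate 2 again inside the corn-oil range.

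Bckdk was at 9.19, 9.36, 9.30 and 9.21, above all corn-oil arrays, with a difference of 0.37 ± 0.09 (adjusted p = 0.0821). Its dimmer probe passed, at 0.37 ± 0.07 (adjusted p = 0.0359). The kinase's differences thus had the same sign as those of Bckdha and Dbt at both probes. Bckdhb stood apart from the other 9 with a difference of -0.06 ± 0.13 (95% interval -0.34 to 0.21) and arrays at 8.84, 9.16, 9.26 and 8.82.

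By count, 4 of 10 genes rose and 6 were not called, against 1.18% of all genes risen. In 7 of the 10 all EPA/DHA arrays lay above all corn-oil arrays, against 5.29% of all genes, and the median difference was 0.45. Bckdha was called whichever 1 array was left out. Ivd was called only without EPA/DHA replicate 2, Pcca only without corn-oil replicate 3 and Pccb only without EPA/DHA replicate 1, with adjusted p-values up to 0.0785, 0.0871 and 0.0968 without one of the others. Without both arrays with raised Ucp1 the calls were Bckdha (0.54, adjusted p = 0.0495) and Mccc2 (0.45, adjusted p = 0.0417), while Ivd and Pccb had adjusted p = 0.0742 and Pcca had adjusted p = 0.123.

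Against the low-fat diet, WAT on EPA/DHA showed no called member, where 0.03% of all genes were called. The median difference was 0.004, with 5 genes above 0 and 5 below. The intervals were narrow for Bckdha (0.06, 95% interval -0.11 to 0.24), Pcca (0.09, -0.09 to 0.26) and Pccb (0.03, -0.16 to 0.23), and wider for Bcat2 (-0.03, -0.35 to 0.30) and Dbt (-0.09, -0.40 to 0.23). Mccc1 (0.10, -0.15 to 0.35), Mccc2 (-0.04, -0.24 to 0.16) and Bckdk (0.16, -0.05 to 0.37) also had intervals across 0. At the brightest probes, only for Ivd (-0.24, -0.46 to -0.03; adjusted p = 0.591) and Bckdhb (-0.30, -0.58 to -0.02; adjusted p = 0.604) did the interval lie on one side of 0, and neither passed. The dimmer Bckdk probe had 0.25 (95% interval 0.08 to 0.41; adjusted p = 0.438), with all EPA/DHA arrays above all low-fat arrays, and did not pass either.

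Other marker levels also varied with diet in WAT. The mean of 8 general adipocyte markers was 11.36 to 11.45 on corn oil, below the 11.54 to 11.61 on low fat and the 11.46 to 11.64 on EPA/DHA. The mean of 11 macrophage markers was 8.98 to 9.48 on corn oil, above the 8.66 to 8.89 on low fat but within reach of the 8.59 to 9.39 on EPA/DHA. None of the 10 macrophage markers tested passed in either comparison, and 1 of 8 adipocyte markers passed, lower on corn oil than on low fat. The mean of 16 mitochondrial reference genes (mostly citric acid cycle and respiratory chain) was 10.51 to 10.69, 10.66 to 10.72 and 10.70 to 11.04 on corn oil, low fat and EPA/DHA. That mean includes Sdha, Ndufs1 and Phb, which were too dim to be tested in WAT. The mean of 7 mast cell markers was 7.64 to 7.84 on corn oil, 7.92 to 8.25 on low fat and 7.78 to 7.93 on EPA/DHA, with 1 of 6 tested called lower on corn oil than on low fat. The mean of 6 mesothelial markers was 7.43 to 7.69, 7.83 to 8.15 and 7.52 to 7.90 on these diets, with none called. Against low fat on corn oil, 1 of 7 white adipocyte markers was called lower and 2 of 7 skeletal muscle markers higher, the latter list having a mean of 7.32 to 7.54 over all WAT arrays. Against corn oil on EPA/DHA, 2 of 7 skeletal muscle markers were called lower. The mean of 7 brown adipocyte markers was 7.78 to 9.02 on corn oil, 7.88 to 8.43 on low fat and 8.21 to 10.14 on EPA/DHA. The 9.02 and the 10.14 were those of the 2 arrays with raised Ucp1. None of the 7 was called. On EPA/DHA 6 of 7 were higher than on corn oil (median difference 0.41) and 6 of 7 higher than on low fat (median 0.80). The part of these markers in the members' differences was not tested, and in a bulk tissue fewer cells of a type and less RNA per cell cannot be told apart.

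**Figure D3:**
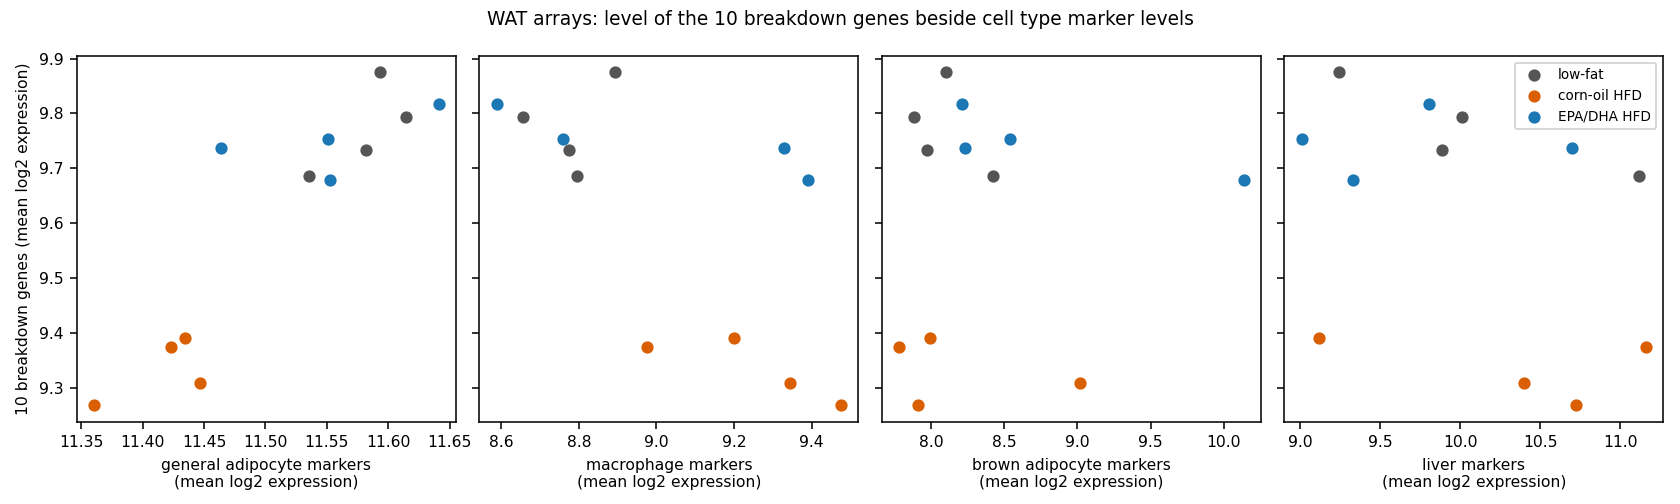
Mean log2 level of the 10 breakdown genes (y axis) against the mean log2 level of 4 cell type marker lists (x axes) on each WAT array, coloured by diet. The corn-oil arrays lie at 9.27 to 9.39 on the y axis, below the 9.68 to 9.88 of the other diets. Their general adipocyte levels, 11.36 to 11.45, lie below all arrays of the other diets. Their macrophage, brown adipocyte and liver levels are partly shared by the other diets.

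The liver marker mean spanned 9.24 to 11.12, 9.12 to 11.16 and 9.01 to 10.70 on low fat, corn oil and EPA/DHA in WAT. With that mean as a covariate, Ivd, Bcat2 and Bckdha stayed called lower on corn oil than on low fat, and Pccb did not (adjusted p = 0.0563). Bckdha alone stayed called higher on EPA/DHA than on corn oil (adjusted p = 0.0248), while Ivd, Pcca and Pccb had adjusted p = 0.0504, 0.0594 and 0.0773.

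In BAT no member passed the same tests: 0 of 10 for corn oil against low fat, EPA/DHA against corn oil and EPA/DHA against low fat. The background there was 0.0%, 0.0% and 0.00746% of 13400 genes. At an unadjusted p under 0.05 limma had 2190, 1264 and 1371 of the 27168 kept probes in these comparisons. Chance alone gives a share of about 0.05 at that threshold. A single fit over all 24 arrays called 150, 6 and 25 probes.

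Bcat2 came nearest. On BAT it read 8.89, 9.29, 9.31 and 9.13 on low fat, 9.01, 8.76, 8.83 and 8.66 on corn oil, and 9.37, 9.12, 9.10 and 8.99 on EPA/DHA. The differences were -0.34 ± 0.11 (95% interval -0.58 to -0.10; adjusted p = 0.437) for corn oil against low fat and 0.33 ± 0.11 (0.09 to 0.57; adjusted p = 0.999) for EPA/DHA against corn oil, with overlapping groups.

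Ivd had the largest corn-oil minus low-fat difference of the 10 in WAT, and in BAT its groups overlapped. It read 10.68, 11.13, 10.71 and 10.94 on low fat, 10.79, 10.86, 10.95 and 10.69 on corn oil, and 10.87, 10.87, 11.12 and 10.57 on EPA/DHA. Its corn-oil minus low-fat difference of -0.04 had a 95% interval from -0.31 to 0.23, where that in WAT ran from -0.95 to -0.53. The direct test of this difference between tissues, given below, did not pass.

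Bckdha read 12.02, 12.33, 11.72 and 12.02 on low fat against 12.05, 11.57, 11.68 and 11.64 on corn oil in BAT, a difference of -0.28 ± 0.15 (adjusted p = 0.681). Mccc1 was the only gene whose BAT groups did not overlap, with low-fat arrays from 8.89 to 9.48 and corn-oil arrays from 8.76 to 8.88 (difference -0.25 ± 0.12, adjusted p = 0.643). That is 1 of 10, where 2.89% of all genes lay wholly lower. For the other genes the corn-oil minus low-fat differences in BAT ran from -0.15 for Mccc2 to 0.22 for Pcca.

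BAT low-fat replicate 2, the array least like the others, carried the low extreme of several members. Dbt read 8.70 there against 9.74, 10.15 and 10.14 on the other low-fat arrays, Bckdhb 9.49 against 10.08 to 10.19, and Pcca 10.37 against 10.96 to 11.17. It also had the highest low-fat values of Bckdha, at 12.33, and Bckdk, at 10.97 against 10.40 to 10.59. Without it the Dbt corn-oil minus low-fat difference in BAT moved from -0.02 to -0.35 (adjusted p = 0.680) and that of Pcca from 0.22 to 0.04, and no member was called.

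Whether a diet effect differed between tissues was tested directly, and no member passed. For corn oil against low fat, 0.652% of 14262 genes were called. All 10 members had a more negative difference in WAT than in BAT, by 0.11 to 0.70, and Ivd was nearest to a call at -0.70 ± 0.16 (95% interval -1.04 to -0.36; adjusted p = 0.0594). It was called without BAT low-fat replicate 2 or without WAT low-fat replicate 2, and over the alternatives its adjusted p ran from 0.0219 to 0.155. Pcca (-0.54 ± 0.20, adjusted p = 0.271) and Pccb (-0.36 ± 0.15, adjusted p = 0.378) had intervals below 0 too, while that of Dbt (-0.54) ran from -1.26 to 0.18.

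For EPA/DHA against corn oil the background was 0.252%, and 9 of 10 members had a more positive difference in WAT. Bckdha (0.52 ± 0.18, adjusted p = 0.411), Bckdk (0.47 ± 0.15, adjusted p = 0.336), Ivd (0.46 ± 0.16, adjusted p = 0.448) and Pccb (0.44 ± 0.15, adjusted p = 0.432) had intervals above 0, and none passed. The diet calls in WAT are therefore not shown to be particular to WAT.

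The tissues were then compared on each diet. On the low-fat diet 6 genes were lower in WAT and 1 was higher, against 20.4% and 23.3% of all genes. On corn oil 8 were lower and 0 higher, against 18.3% and 22.8%. On EPA/DHA 6 were lower and 1 higher, against 17.6% and 20.1%. Other lists differed between the tissues in the same direction: 12, 13 and 12 of 14 mitochondrial reference genes were lower in WAT on low fat, corn oil and EPA/DHA, with medians of -1.54, -1.86 and -1.30, as were 8, 11 and 10 of 11 skeletal muscle markers, with medians of -2.59, -3.70 and -3.00. The members' medians were -0.48, -0.79 and -0.62, and the part of those lists in them was not tested.

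The kinase Bckdk differed most. On low fat its arrays read 9.15, 9.25, 9.20 and 8.82 in WAT and 10.48, 10.97, 10.40 and 10.59 in BAT, a gap with no overlap. It was lower in WAT by 1.51 ± 0.10 on low fat (adjusted p = 3.12e-10), a difference of -1.62 on corn oil and of -1.16 on EPA/DHA. Bckdha, whose BAT arrays lay above all WAT arrays, was lower in WAT by 1.35 ± 0.12 on low fat (adjusted p = 2.36e-08), with differences of -1.55 on corn oil and -1.03 on EPA/DHA.

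Pccb was lower in WAT by 1.04 ± 0.11 on low fat (adjusted p = 1.22e-07), with -1.40 and -0.96 on corn oil and EPA/DHA, and BAT arrays from 11.15 to 11.77. Pcca had -0.58 ± 0.14 (adjusted p = 0.00209), -1.12 and -0.73. Both carboxylase subunits thus showed their widest tissue gap on corn oil, as did Bckdk and Bckdha, but the interaction tests above did not separate the diets. Bckdhb had -0.65 ± 0.15 (adjusted p = 0.0015), -0.88 and -0.91, and Mccc2 had -0.38 ± 0.09 (adjusted p = 0.00185), -0.59 and -0.36.

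These 6 genes were called lower in WAT on every diet, under every alternative and with any 1 array left out. Dbt was called on corn oil only (-0.70, adjusted p = 0.0309), and there it lost the call without 6 of the 8 arrays. It also passed on low fat without BAT low-fat replicate 2 (-0.48, adjusted p = 0.0444). Mccc1 was called on no diet, with -0.18, -0.29 and -0.01.

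Bcat2 and Ivd did not follow the others. Bcat2 was higher in WAT on low fat (0.48 ± 0.14, adjusted p = 0.00765) and on EPA/DHA (0.47, adjusted p = 0.0112), and did not differ beyond its spread on corn oil (0.13, adjusted p = 0.501). Ivd was lower in WAT on corn oil (-0.42, adjusted p = 0.00653), while the differences were 0.27 on low fat (adjusted p = 0.0697) and 0.04 on EPA/DHA (adjusted p = 0.849). Ivd also passed on low fat without BAT low-fat replicate 2 or WAT low-fat replicate 2.

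**Figure D4:**
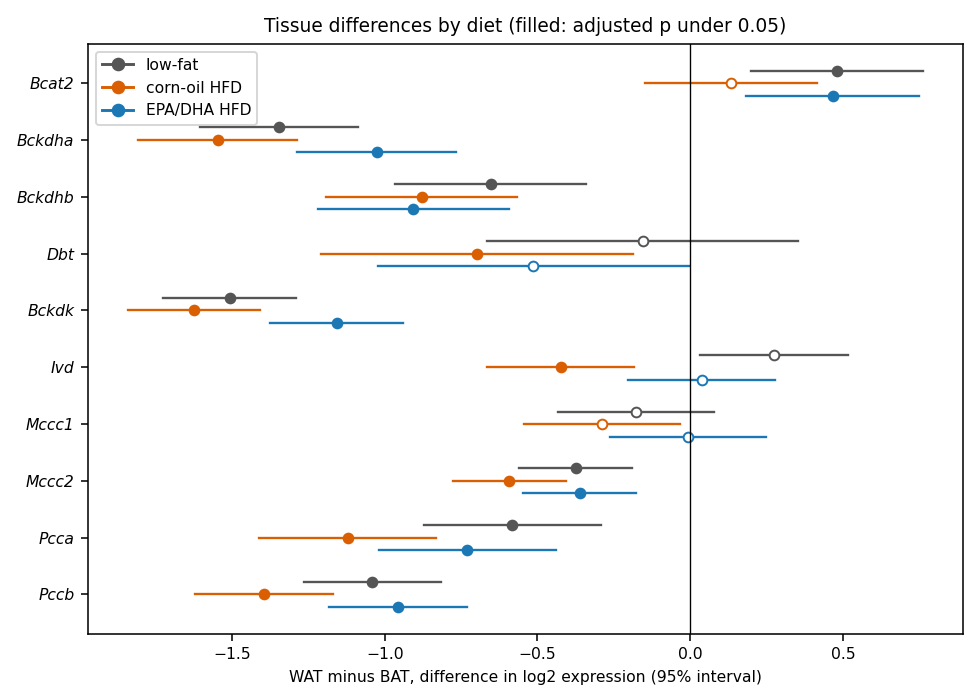
WAT minus BAT difference in log2 expression (x axis, with 95% intervals) for each gene (y axis) on the 3 diets, filled where the adjusted p was under 0.05. Bckdha, Bckdk and Pccb lie near or below -1 on every diet, and Bcat2 lies right of 0.

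Over the 6 groups, the lowest mean of 8 genes was that of WAT on corn oil: Bckdha, Dbt, Bckdk, Ivd, Mccc1, Mccc2, Pcca and Pccb. For Bcat2 the lowest mean was in BAT on corn oil, 8.81 ± 0.15 (SD, n = 4), next to 8.95 ± 0.14 in WAT on corn oil, which did not differ beyond the spread. For Bckdhb it was in WAT on EPA/DHA, 9.02 ± 0.22, next to 9.09 ± 0.23 on corn oil. At the other end, Bcat2 was highest in WAT on low fat (9.64 ± 0.31) and on EPA/DHA (9.61 ± 0.20), and Ivd in WAT on low fat (11.14 ± 0.18). The BAT groups held the highest means of the remaining 8 genes.

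Of the 10 genes, 6 had further, dimmer probes. Both dimmer Pcca probes had negative corn-oil minus low-fat differences in WAT, -0.47 ± 0.12 (adjusted p = 0.0621) and -0.17 (adjusted p = 0.146), and the dimmer Pccb probe had -0.31 ± 0.11 (adjusted p = 0.185). Against EPA/DHA they turned positive, at 0.46 ± 0.12, 0.20 and 0.34 ± 0.11, and none passed. The dimmer Bcat2 and Ivd probes and both dimmer Dbt probes stayed near the floor, at no more than 7.20, 7.26 and 7.59, and carry little information. One of these Dbt probes was still called lower in WAT than in BAT on corn oil (-0.18, adjusted p = 0.0217). The dimmer Bckdk probe was called lower in WAT on each diet, at -1.50, -1.57 and -1.31 on low fat, corn oil and EPA/DHA. Both dimmer Pcca probes were also called lower in WAT on each diet. In WAT 17 of the 18 probes passed the filter on dim probes, and in BAT all 18 did.

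The pathway has further enzymes, of which 19 with a probe were looked at and 16 passed the filter. Hibch, Mmut and Mmaa were too dim. In WAT, 2 of the 16 fell on corn oil against low fat and 14 did not pass, with a median difference of -0.067. Echs1, the enoyl-CoA hydratase of valine, isoleucine and fatty acid breakdown, read 11.81, 11.58, 11.69 and 11.71 on low fat and 11.31, 11.31, 11.34 and 11.53 on corn oil, and fell by 0.33 ± 0.07 (adjusted p = 0.0424). Aldh6a1, the last dehydrogenase of the valine branch, read 11.71, 11.38, 11.61 and 12.08 against 10.84, 10.56, 11.44 and 10.72 and fell by 0.81 ± 0.18 (adjusted p = 0.0441). Its corn-oil replicate 3 lay among the low-fat arrays.

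Of the 16, 2 rose on EPA/DHA against corn oil, with 13 positive, 3 negative and a median of 0.15. Echs1 rose by 0.59 ± 0.07 (adjusted p = 0.00454), to 12.06, 11.76, 11.99 and 12.03, above all corn-oil arrays. Hibadh, which oxidises a valine intermediate, rose by 0.34 ± 0.07 (adjusted p = 0.0412), from 13.15, 13.13, 12.93 and 12.98 to 13.42, 13.28, 13.53 and 13.34. None of the 16 passed for EPA/DHA against low fat in WAT, in any diet comparison in BAT, or in the tests of a diet effect differing between tissues. Between the tissues themselves, 10, 11 and 9 of the 16 were lower in WAT and 3, 2 and 2 higher on low fat, corn oil and EPA/DHA.

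A few of these genes are named for their place next to the members, and their values were known when they were chosen. Ppm1k, the phosphatase that reverses Bckdk, had a corn-oil minus low-fat difference of -0.30 ± 0.12 in WAT (adjusted p = 0.226) and an EPA/DHA minus corn-oil difference of 0.02. Dld, the subunit the complex shares with pyruvate dehydrogenase, had -0.17 ± 0.15 (adjusted p = 0.672) and 0.41 ± 0.15 (adjusted p = 0.217). Slc25a44, the mitochondrial carrier of these amino acids, had -0.27 ± 0.11 (adjusted p = 0.254) and 0.35 ± 0.11 (adjusted p = 0.151). Bcat1, the cytosolic aminotransferase, had opposite signs from Bcat2, 0.26 ± 0.09 (adjusted p = 0.145) and -0.22 (adjusted p = 0.254). None of these 4 passed.

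None of 6 transcriptional regulators linked to these genes (Klf15, Pparg, Ppara, Ppargc1a, Esrra and Mlxipl) passed in any diet comparison or interaction. Klf15, at 7.13 to 7.46 in WAT and 7.13 to 7.61 in BAT, and Ppara, at 7.07 to 7.34 in WAT, lay near the floor. They carry little information there. In WAT the largest diet differences, singled out after their values were seen, were those of Mlxipl (0.57 ± 0.17, adjusted p = 0.138) and Ppargc1a (0.38 ± 0.12, adjusted p = 0.136) for EPA/DHA against corn oil. Ppargc1a was dim, at 7.68, 8.22, 7.64 and 7.56 on EPA/DHA and 7.35 to 7.47 on corn oil. Its 8.22 was on replicate 2, an array with raised Ucp1. Among 13 mitochondrial reference genes tested in WAT, only Uqcrc2, of respiratory complex III, fell on corn oil against low fat, with a list median of -0.14. On EPA/DHA against corn oil Uqcrc2 and Cox4i1 rose, all 13 differences were positive and the median was 0.33. The corresponding medians of the 10 breakdown genes were -0.38 and 0.45. The mean of the 16 reference genes with a probe was 10.70, 11.04, 10.87 and 10.86 on the EPA/DHA arrays, against 10.51 to 10.69 on corn oil. The 11.04 was that of replicate 2, an array with raised Ucp1, and its part in these differences was not tested.

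Within a tissue, the members' likeness was described by Pearson's r of each gene with the mean of the other 9 over 12 arrays, which share the normalisation and include the diet differences. In WAT it was 0.92 for Bckdha, 0.88 for Bcat2 and 0.87 for Pccb, but 0.19 for Bckdhb and 0.56 for Bckdk, the remaining 5 lying between 0.73 and 0.82. In BAT it ran from -0.28 for Bckdhb and Dbt to 0.73 for Mccc2. The genes outside the list most like the members' mean in WAT were Pde1a (0.97), Ces1d (0.95), Fahd2a (0.94), Glrx2 (0.94) and Sh3glb2 (0.94). Of the named genes that passed the filter there, members aside, 95% lay below 0.68. In BAT they were Fzd3 (0.86), Zfp329 (0.85), Cluh (0.84), Trp53rka (0.82) and Mib1 (0.81), where that level was 0.50.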

How the data were processed

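The authors' deposited table held 1 log2 expression value per probe and array for 24 Illumina arrays, made with lumi 2.18.0 per the submitters' processing notes. Sorted from lowest to highest, the arrays matched each other to within 0.00694, as after quantile normalisation. Whether the scale is a plain or a variance-stabilised log2 is not given in the sources used here, so differences near the floor can be understated. Probes were named through the platform table, and 34818 of 34885 probes with 1 symbol matched RefSeq, whose GRCm38.p6 promoters were used. Groups came from the tissue and diet labels.

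Probes above the 40th percentile of the mean (7.11 in each tissue) were tested with limma 3.58.1 in R 4.3.3, by tissue for diets and over 24 arrays for tissues and interactions, with Benjamini-Hochberg adjustment over all kept probes and a threshold of 0.05. No array values were left out of the fits, and the number of arrays limits the precision. The fit was tested on simulated data. Alternatives were other filters, normalisations, variance priors, array weights, a replicate block, 1 fit over all arrays, marker covariates and leaving out arrays. Every kept probe of the 10 genes was tested, and the dimmer ones are reported here only in part. By rule other pathway and regulator genes are named where they passed, those singled out apart. The members and lists were chosen with earlier results of these data known.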

Additional observations from a re-analysis of the deposited data

Results flagged for a closer look

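Each of the 18 probes was checked in each of the 6 groups for 1 array lying far from the other 3 by Dixon's criterion, at which chance alone picks out about 1 in 20 groups. It picked out 7 of 108.

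Of the brightest probes, Bckdhb read 9.49 on BAT low-fat replicate 2, below the 10.08 to 10.19 of the other arrays, and this was the array least like the rest of its tissue. Mccc2 read 8.95 on BAT low-fat replicate 4, just above 8.89 to 8.90, a gap that is large only beside the narrow spread of the other 3.

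The other 5 were dimmer probes. A Pcca probe read 10.27 on WAT low-fat replicate 2 against 9.97 to 10.02, and another read 8.02 on BAT EPA/DHA HFD replicate 3 against 8.16 to 8.18. The second Pccb probe read 8.74 on WAT corn-oil HFD replicate 2 against 9.14 to 9.17. The second Bckdk probe read 8.79 on WAT low-fat replicate 1, where the other 3 arrays were all at 8.74. A Dbt probe near the floor read 7.59 on BAT corn-oil HFD replicate 4 against 7.26 to 7.30.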

How the results depend on the processing

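No difference of a member at its brightest probe that was called changed sign under any alternative. Over all member values and alternatives, 1920 kept their side of the threshold, 60 lost a call and 30 gained one. The cause of the changes below was not tested. For corn oil against low fat in WAT, 4 members were called, but 2 with no filter, 7 with the 60th percentile filter, 6 with a trended, robust prior, and 2 once both WAT arrays with raised Ucp1 were dropped, an alternative chosen after seeing the data. For EPA/DHA against corn oil in WAT, 4 became 1 with the liver covariate, 2 without those 2 arrays, and 6 (Bcat2 and Mccc1 added) with the 60th percentile filter and with the trended, robust prior. For the interaction of corn oil against low fat, 0 became 1, Ivd, with the 60th percentile filter and with array weights. All-probe counts under these settings are printed below only in part. The member counts therefore show only how the calls depend on the setting.

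Leaving out 1 array gave 2 to 4 members for corn oil against low fat and 1 to 4 for EPA/DHA against corn oil in WAT, 0 to 1 for the corn-oil interaction, 0 for the other diet comparisons, and 7 to 9, 7 to 8 and 7 to 8 between tissues on low fat, corn oil and EPA/DHA.

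Over all probes, corn oil against low fat in WAT had 797 calls (266 to 602 with 1 array left out), and 380 without the 2 arrays. EPA/DHA against corn oil had 477 (175 to 465), 302 with the liver covariate and 299 without the 2 arrays. EPA/DHA against low fat had 13 (0 to 9), 1 with no filter, 7 in 1 fit over 24 arrays and 5 with the liver covariate. In BAT, corn oil against low fat had 0 (0 to 2), 11 with a trended, robust prior and 150 in 1 fit over 24 arrays, EPA/DHA against corn oil 0 and 6 in that fit, and EPA/DHA against low fat 2 (0 to 3), 0 with the trended prior, 25 in that fit and 1 with the muscle covariate. The interactions had 149 (55 to 149), 96 without the 2 arrays, and 58 (34 to 74). Between tissues, of 29493 kept probes, 11050 (9923 to 10745), 10138 (9092 to 9631) and 9347 (8316 to 8988) were called on low fat, corn oil and EPA/DHA.

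Arrays share replicate numbers across groups, but nothing says that a number marks a mouse or a batch. Deviations of same-numbered arrays of 1 tissue correlated at -0.36 to 0.54 over 24 pairs. Their median was 0.09, against -0.02 over 72 other-numbered pairs. Those of WAT with BAT correlated at -0.19 to 0.07 over 12 pairs, with a median of -0.03 against 0.004 over 36 others. As the labels give no pairing, none was used in the main fits, and a block by number is given as an alternative. For interactions and tissue comparisons, that block joined the WAT and the BAT array of the same diet and number. With the replicate number as a block, 3 members were called in both of the first WAT comparisons. These were Ivd, Bckdha and Mccc1 each time: Bcat2 (adjusted p = 0.0519) and Pccb (adjusted p = 0.0779) were not called for corn oil against low fat, nor Pcca (adjusted p = 0.0629) and Pccb (adjusted p = 0.0692) for EPA/DHA against corn oil. The all-probe counts were 500 for corn oil against low fat and 5 for EPA/DHA against low fat in WAT, 0 for EPA/DHA against low fat in BAT, and 56 and 18 for the interactions. The count for EPA/DHA against corn oil in WAT is not printed, so the 3 members there have no background share beside them.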
